A study of Mus musculus with 3 samples.

Results

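The genes described here are 10 components of transforming growth factor β (TGF-β) and bone morphogenetic protein (BMP) signaling, listed by symbol, with no value in the rule, out of 32285 genes counted in the mouse retina. They comprise the ligands Tgfb1 and Tgfb2, the type I receptors Tgfbr1 and Acvrl1, the type II receptors Tgfbr2 and Bmpr2, the co-receptor Eng, the inhibitory SMADs Smad6 and Smad7, and the transcriptional target Id1. Ligands of this family bring type I and type II receptors together at the cell surface, and the type I receptor then phosphorylates SMAD proteins that enter the nucleus and change transcription. In blood vessels, Acvrl1 and Eng form a branch that responds to BMP ligands in the blood and signals to Id1. Loss of either gene in humans causes hereditary hemorrhagic telangiectasia, a disorder of fragile and malformed vessels.

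On the mouse build GRCm38, whose positions come from the GENCODE M21 annotation, the ligand genes lie with Tgfb1 at chr7:25687002-25705077 and Tgfb2 at chr1:186622792-186705989. The receptor genes lie with Tgfbr1 at chr4:47353222-47414931, Acvrl1 at chr15:101128522-101145336, Tgfbr2 at chr9:116084293-116175360, Bmpr2 at chr1:59763400-59879014 and Eng at chr2:32646595-32682669. The intracellular members lie with Smad6 at chr9:63953076-64022059, Smad7 at chr18:75367529-75395935 and Id1 at chr2:152736251-152737410. The 3′ libraries count molecules over whole genes, so no exon or isoform is resolved.

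The study made these libraries to follow an interferon-related signature in retinal vessels over age, and the genes described here were not its question. Retinal cells of C57BL/6JRj mice were enriched with a CD31 antibody, which binds an endothelial surface protein, and were sequenced in 3 droplet-based single-cell libraries from animals aged 3 months, called young, 12 months, called adult, and 23 months, called old. Both retinas of 2 mice were pooled in each library, no allele or agent was added at any age, and there was 1 library per age. Age and preparation therefore cannot be told apart, no p-value was computed, and the words higher and lower refer to the libraries themselves. Levels are given as unique molecular identifiers (UMIs, each a counted transcript molecule) of a gene relative to all UMIs of a cell class, scaled to 1e6 and abbreviated CPM. Ranges in brackets are exact 95% intervals that cover counting error only.

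After filtering, 1706 young, 1957 adult and 1697 old cells remained, with median depths between 5964 and 6355.5 UMIs per cell. Clustering was run without the signaling genes, and the endothelial class held 440, 423 and 402 cells in the young, adult and old libraries. Of these, 214, 155 and 132 cells had fewer than 2 detected markers of any other class. All 8 listed endothelial markers, including Cldn5 and Pecam1, were detected in it in each library. The median endothelial depth was 5618 UMIs in the young library, 6016 in the adult and 7561 in the old. The other classes compared were pericytes, vascular smooth muscle cells, Müller glia, rods, cones and bipolar cells. A further 313, 250 and 220 cells in clusters that met both endothelial and pericyte markers were kept apart. The adult and old libraries shared 2 cell barcodes, and no other pair shared any.

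Most of these genes had their highest level in endothelial cells. Among the 7 classes, 8 of the 10 genes were highest in the endothelial class in all 3 libraries, whereas 10.4% of 13433 genes with enough UMIs were. These 8 were Tgfb1, Tgfbr2, Acvrl1, Bmpr2, Eng, Smad6, Smad7 and Id1. The remaining receptor, Tgfbr1, was highest in bipolar cells in each library. The remaining ligand, Tgfb2, was highest in Müller glia in the young and adult libraries and in bipolar cells in the old one. Of the other 43 genes of the pathway list with enough UMIs, 7 were highest in endothelial cells in all libraries. Since the cells had been enriched by an endothelial antibody, the numbers of cells per class do not describe the retina.

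**Figure D1:**
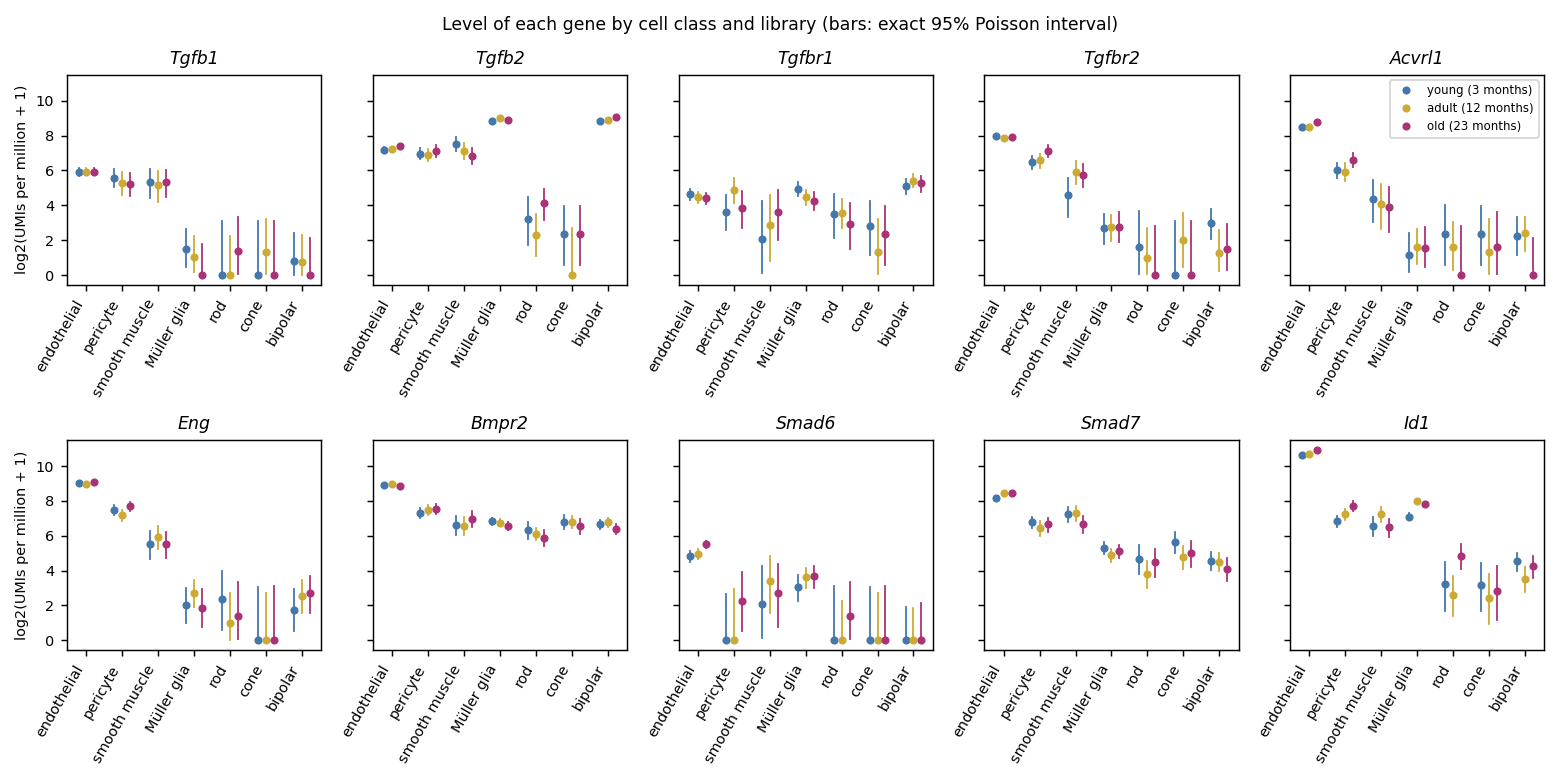
Level of each of the 10 genes, as log2(CPM + 1), in 7 retinal cell classes, with 1 point per library and exact 95% counting intervals as bars. Acvrl1 and Eng in Müller glia stayed under 6 CPM, against 362 CPM or more in endothelial cells, whereas Tgfb2 was at 450 CPM or more in Müller glia and bipolar cells.

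The ligand Tgfb1, the founding member of the family, was measured at 59.5 CPM (51.3 to 68.5) in young, 59.8 CPM (51.8 to 68.7) in adult and 60.4 CPM (52.7 to 69) in old endothelial cells. Pericytes had 47.4, 38.1 and 36.5 CPM and smooth muscle cells 39, 34.9 and 39 CPM, so that all 3 vascular classes had the gene. Endothelial cells exceeded pericytes by 1.25-fold (0.863 to 1.87) in the young, 1.57-fold (0.999 to 2.59) in the adult and 1.65-fold (1.03 to 2.8) in the old library. The endothelial ratios over smooth muscle cells were 1.52 (0.853 to 3), 1.71 (0.937 to 3.49) and 1.55 (0.904 to 2.88), and each interval included 1. Summed over the 3 libraries, endothelial cells had 59.9 CPM (55.3 to 64.9), above pericytes at 41.3 CPM (32.4 to 52) and smooth muscle cells at 37.7 CPM (26.5 to 51.9). The pericyte and smooth muscle levels were not separated from each other. In Müller glia it was counted 3, 2 and 0 times, and the 0 in the old library allows a level of up to 1.94 CPM. Some classes left out of the age comparison for their small numbers had more Tgfb1. B cells had 157 CPM over the 3 libraries and the cluster that mixed lymphocyte and microglial markers had 164 CPM, both above the vascular classes. That mixed cluster was led by S100a9 and Lyz2, which are not among the listed markers, so its levels are not assigned to 1 cell type.

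Tgfb2, the second ligand, had a different distribution, with its highest levels in neural and glial cells. Müller glia, the radial glia that span the retina, had 463 CPM (430 to 497) in the young, 517 CPM (485 to 550) in the adult and 481 CPM (447 to 517) in the old library. Bipolar cells, the interneurons that receive photoreceptor input, had 450 CPM (415 to 488), 476 CPM (441 to 514) and 528 CPM (486 to 572). The levels of Müller glia and bipolar cells were not separated from each other, with ratios of 1.03 (0.922 to 1.15), 1.08 (0.983 to 1.2) and 0.911 (0.817 to 1.02). Endothelial cells had 146 CPM (133 to 160), 150 CPM (137 to 164) and 169 CPM (156 to 183). Müller glia thus exceeded endothelial cells by 3.16-fold (2.81 to 3.55), 3.44-fold and 2.85-fold, and bipolar cells exceeded them by 3.08-fold, 3.17-fold and 3.13-fold. Rods, at 8.3, 4.01 and 16.3 CPM, gave the level at which Tgfb2 was seen in a class with little of it.

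Within the bipolar class, Tgfb2 and its type I receptor Tgfbr1 differed between clusters, and 1 cluster was high in both. The clusters led by Pcp2 and Prkca, by Trpm1 and Prkca, and by Cck and Vsx1 all met the markers Grm6, Trpm1 and Isl1, which mark ON bipolar cells. Their Tgfb2 levels over the 3 libraries were 674, 955 and 409 CPM, whereas the 3 clusters that did not meet these markers had 40.1, 4.25 and 20.2 CPM. By library, the Pcp2 and Prkca cluster had 596, 715 and 714 CPM, the Trpm1 and Prkca cluster 874, 937 and 1086 CPM, and the Cck and Vsx1 cluster 408, 395 and 427 CPM. Of the 3 low clusters, the one led by Grik1 had 56.6, 36.7 and 25.9 CPM. The Slit2 and Neto1 clusters had 0, 1 and 0 UMIs and 0, 3 and 0 UMIs, and since they held few cells a 0 allows up to 51.7 and 88.3 CPM. Tgfbr1 was at 5.76 and 7.37 CPM in the 2 Prkca clusters, at 67.9 CPM in the Cck and Vsx1 cluster, and at 72.9, 93.5 and 47.2 CPM in the others. The Cck and Vsx1 cluster was the one in which both genes were above 60 CPM, with Tgfbr1 at 67, 67.8 and 69.3 CPM by library. The clusters differed in size, from 204 cells to 18 cells, and these levels are a description of clusters that were built without either gene.

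**Figure D2:**
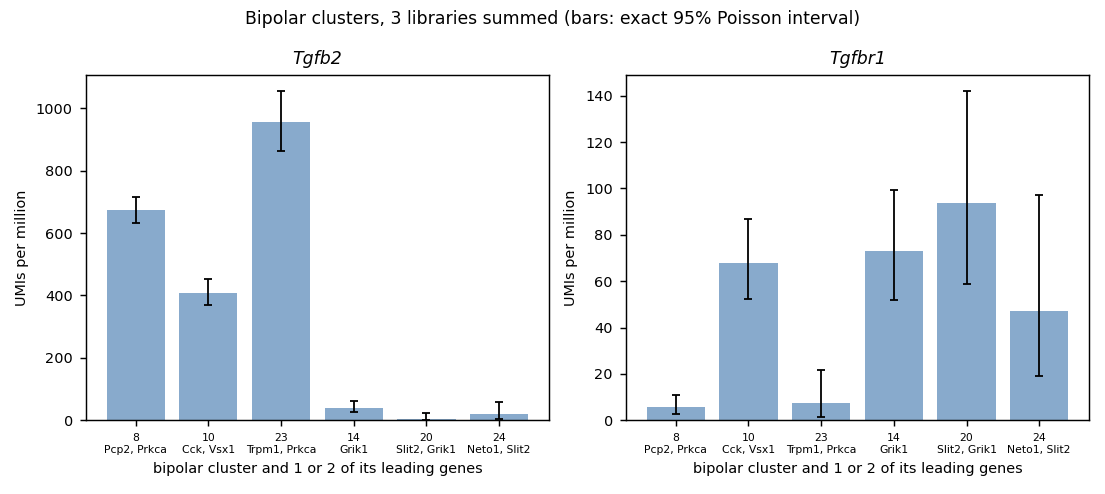
Level (CPM, linear axis) of Tgfb2 and Tgfbr1 in the bipolar clusters, each numbered and named by leading genes, as bars of the 3 libraries summed with exact 95% counting intervals. Tgfb2 was at 674 and 955 CPM in the Prkca clusters, where Tgfbr1 was at 5.76 and 7.37 CPM.

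Tgfbr1, the type I receptor that signals for TGF-β, was highest among the 7 compared classes in bipolar cells. Bipolar cells had 33.5 CPM (24.4 to 45), 41.6 CPM (31.7 to 53.7) and 37.2 CPM (26.7 to 50.5), and endothelial cells had 23.7 CPM (18.6 to 29.6), 20.9 CPM (16.3 to 26.4) and 20.3 CPM (16 to 25.5). The bipolar level exceeded the endothelial one by 1.42-fold (0.954 to 2.08), 1.99-fold (1.38 to 2.86) and 1.83-fold (1.22 to 2.72). Over Müller glia it stood at 1.13 (0.735 to 1.74), 1.97 (1.3 to 3.02) and 2.05 (1.24 to 3.45), so that in the young library bipolar cells were separated from neither class. Outside the 7 classes, the cluster that mixed lymphocyte and microglial markers had 146 CPM (112 to 186) of Tgfbr1 over the 3 libraries, against 37.6 CPM in bipolar cells. The partner receptor Tgfbr2, the type II receptor that binds TGF-β, was highest in endothelial cells. Endothelial cells had 256 CPM (238 to 274), 231 CPM (215 to 248) and 238 CPM (223 to 255) of Tgfbr2, whereas Müller glia had 5.44, 5.66 and 5.83 CPM. The endothelial level was 47-fold, 40.8-fold and 40.9-fold that of Müller glia, and 2.92-fold, 2.45-fold and 1.72-fold that of pericytes. The mixed lymphocyte and microglial cluster had 157 CPM (122 to 199) of Tgfbr2 and B cells 101 CPM (77.6 to 129), close to the 105 CPM of pericytes over the 3 libraries. Thus Müller glia and bipolar cells, where Tgfb2 was highest, had under 7 CPM of Tgfbr2 in each library.

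Acvrl1, the endothelial type I receptor for circulating BMP ligands, was at 362 CPM (342 to 384) in young, 363 CPM (343 to 384) in adult and 442 CPM (420 to 464) in old endothelial cells. Young and adult overlapped and the old library lay above both. Pericytes had 64.7, 59.9 and 96.2 CPM, and Müller glia had between 1.21 and 2.06 CPM. The endothelial level was 5.6-fold, 6.07-fold and 4.59-fold that of pericytes, and 299-fold, 176-fold and 227-fold that of Müller glia, where the counts were 2, 4 and 3.

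Eng, the co-receptor that presents ligand to this receptor complex, was at 522 CPM (497 to 547), 496 CPM (473 to 521) and 550 CPM (526 to 574) in endothelial cells of the 3 ages. Pericytes had 178, 145 and 206 CPM, and Eng was counted in no cone. The share of endothelial cells with at least 1 Eng UMI was 88.9%, 86.5% and 91.5%, against 1.2%, 0.311% and 0.422% of rods, which serve as the background of free RNA at a median depth of 2161 to 2425.5 UMIs. Acvrl1 was found in 81.6%, 83.5% and 92.8% of endothelial cells. Old endothelial cells were also the deepest, and after each cell was thinned to 2000 UMIs the shares for Acvrl1 were 49.5% (44.7 to 54.4), 50.9% (45.9 to 55.9) and 54.4% (49.4 to 59.4), so that the intervals overlapped. Thinning kept 428, 399 and 399 endothelial cells and left the shallower ones out.

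Bmpr2, the type II receptor for BMP ligands, was the receptor with the widest distribution. Endothelial cells had 473 CPM (449 to 497), 500 CPM (476 to 525) and 463 CPM (441 to 486). Pericytes, at 157, 176 and 185 CPM, Müller glia, at 114, 106 and 93.3 CPM, and bipolar cells, at 101, 108 and 84.5 CPM, all had the gene. Rods had 78.9, 67.2 and 58.6 CPM and cones 110, 109 and 92.2 CPM, well above the levels of Eng and Acvrl1 in the same cells. The endothelial excess over Müller glia was 4.16-fold, 4.72-fold and 4.96-fold, compared with 2 orders of magnitude for Acvrl1.

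The inhibitory SMADs block the pathway from inside the cell, Smad6 chiefly for BMP receptors and Smad7 for both branches, and both are themselves targets of the pathway. Smad6 had 27.4 CPM (22 to 33.8) in young, 29.9 CPM (24.3 to 36.3) in adult and 44.5 CPM (37.9 to 51.9) in old endothelial cells. The young and adult intervals overlapped and the old interval lay above both. No Smad6 UMI was counted in young or adult pericytes, which makes the endothelial level at least 6.35-fold and at least 5.49-fold higher, taking 3 counts per library as the limit of a 0. Old pericytes had 2 UMIs. Bipolar cells had none in any library, and Müller glia had 7.26, 11.3 and 11.7 CPM. Smad6 was thus nearly absent from pericytes while Smad7 was not. Smad7 had 287 CPM (269 to 306), 346 CPM (327 to 367) and 355 CPM (336 to 375) in endothelial cells, 108, 85.3 and 100 CPM in pericytes and 150, 155 and 100 CPM in smooth muscle cells.

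Promoter sequences were searched for 6 short strings, on both strands, because Smad6 and Id1 are known targets of SMAD proteins. RefSeq windows of the GRCm38.p6 assembly, running from 250 bases before to 50 bases after the start site, were found for 7 of the 10 genes, as 8 windows, and none was found for Acvrl1, Smad7 or Id1. The palindromic SMAD box GTCTAGAC occurred in 70 of 32851 promoter windows (0.213%), and Smad6 was the one gene here that held it. The GC-rich SMAD element GGCGCC occurred in 11.9% of windows and in those of Bmpr2 and Tgfbr1, starting 105 and 233 bases before their RefSeq start sites. The RefSeq start used for Bmpr2 lies inside the gene as GENCODE M21 gives it, so that match is within the annotated gene. The string CAGACA, in 21% of windows, was found for Tgfb2 and Tgfbr1. GGCGCG, in 19.2%, was found for Tgfb1, and GCCGCC, in 23.4%, for Bmpr2, Smad6, Tgfb1, Tgfbr1 and Tgfbr2, and no match in these windows overlapped a match to another string. The ETS core CCGGAA, in 14.9%, was found for none. The sequences of Smad6, which had the rarest string and the largest endothelial difference between ages, and of Tgfbr1, the receptor highest outside the vessels, are shown 5′ to 3′ on the strand of the gene with the string in capitals. The first ends 4 bases past the Smad6 start site on the minus strand at chr9:64022056-64022309, and the second lies on the plus strand at chr4:47352972-47353221.
Smad6: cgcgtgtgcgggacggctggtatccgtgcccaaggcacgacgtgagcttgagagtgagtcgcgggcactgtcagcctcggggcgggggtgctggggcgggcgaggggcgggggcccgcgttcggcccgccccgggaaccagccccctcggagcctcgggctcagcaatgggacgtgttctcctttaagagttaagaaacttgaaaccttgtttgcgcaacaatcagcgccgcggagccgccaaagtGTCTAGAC
Tgfbr1: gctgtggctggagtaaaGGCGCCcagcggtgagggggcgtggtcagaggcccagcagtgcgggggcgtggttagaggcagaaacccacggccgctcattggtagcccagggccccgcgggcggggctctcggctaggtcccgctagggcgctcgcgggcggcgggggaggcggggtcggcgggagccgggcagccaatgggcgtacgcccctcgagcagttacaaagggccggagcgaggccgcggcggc
A match is a description of the letters and does not show that a protein binds there.

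Id1, an inhibitor of basic helix-loop-helix transcription factors and a direct target of BMP signaling in endothelium, had 1580 CPM (1537 to 1625) in young, 1670 CPM (1627 to 1714) in adult and 1947 CPM (1902 to 1993) in old endothelial cells. Endothelial cells with at least 1 UMI made up 95.7%, 97.4% and 97.5% of the class, against 2.4%, 1.55% and 5.91% of rods. The endothelial level was 13.9-fold, 11.2-fold and 9.2-fold that of pericytes and 11.6-fold, 6.52-fold and 8.73-fold that of Müller glia. Bipolar cells had 22.1, 10.6 and 18.2 CPM, far under the vascular and glial levels.

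The age comparison in endothelial cells gave small differences for most of the 10 genes. Smad6 was past 1.5-fold between the old and young libraries, at 1.62-fold (1.25 to 2.13), and the other 9 were not, while 8.16% of the 8953 genes with at least 50 UMIs over these libraries were past it in either direction. With 1 of 10, the genes were close to that background. Id1 was 1.23-fold higher in the old library (1.19 to 1.28), Smad7 1.24-fold (1.14 to 1.35), Acvrl1 1.22-fold (1.13 to 1.32) and Tgfb2 1.15-fold (1.02 to 1.30), with intervals that lay above 1. The ratios of Tgfb1 (1.02), Tgfbr1 (0.859), Tgfbr2 (0.933), Eng (1.05) and Bmpr2 (0.979) had intervals that included 1. The median log2 ratio of the 10 genes was 0.14, with 7 above 0, against 0.0299 over all 8953 genes tested, of which 4868 were above 0.

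These endothelial differences did not share one time course. Between the adult and young libraries none of the 10 genes was past 1.5-fold, with a background of 4.26% of 8842 genes, and none was between old and adult, with 5.89% of 9031 genes. Smad7 was 1.21-fold higher in the adult than in the young library and 1.03-fold higher in the old than in the adult. Acvrl1 was at 1.00 between adult and young and 1.22-fold higher (1.13 to 1.31) in old than in adult cells. Smad6 in this class was at 1.09 between adult and young and 1.49 (1.15 to 1.93) between old and adult. The summed level of 8 pericyte markers in the endothelial class was 1892, 2004 and 1280 CPM, and that of 5 erythroid markers was 563, 204 and 1393 CPM. Müller glia markers there were at 712, 868 and 1070 CPM, rod markers at 56.7, 94.7 and 121 CPM, and free RNA was estimated at 2.89%, 2.91% and 5.27% of UMIs. A list of 12 dissociation-response genes was 0.934 times as high in the old as in the young library. The part of these shifts in the ratios was not tested. In the clusters of mixed endothelial and pericyte markers, which were not used above, Smad6 was 1.60-fold higher (1.18 to 2.18) and Id1 1.31-fold higher in the old than in the young library. There Smad6 was already 1.5-fold higher (1.11 to 2.03) in the adult than in the young library and at 1.07 (0.803 to 1.42) between old and adult, whereas Acvrl1 was at 0.983 and 1.21. The old over adult interval of Smad6 overlapped that of the endothelial class, and the difference between them was not tested.

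**Figure D3:**
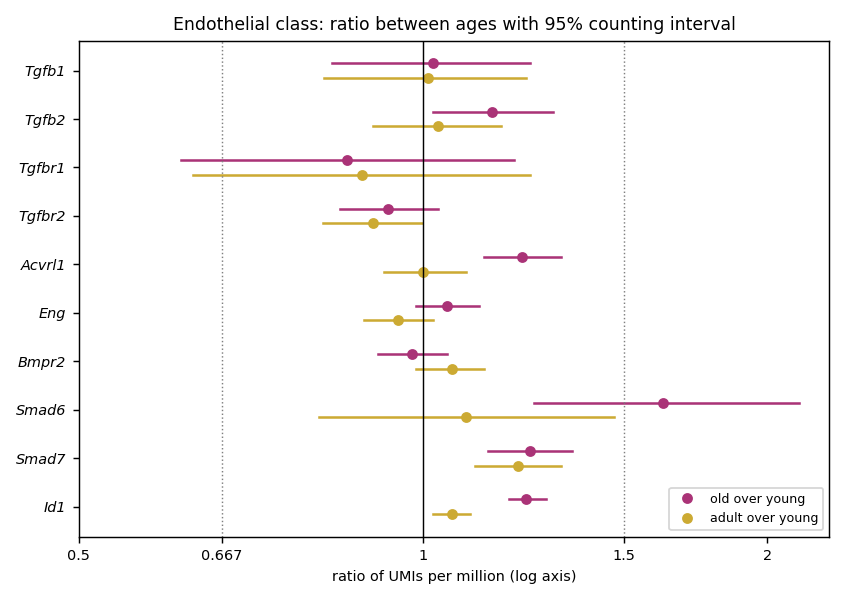
Ratios of CPM between ages in endothelial cells, old over young and adult over young, for each of the 10 genes (log axis), with exact 95% counting intervals and dotted lines at 1.5-fold in either direction. Between old and young, Smad6 lies at 1.62, past the line, and the remaining 9 lie between 0.859 and 1.24.

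The endothelial class consisted of 2 clusters. One met arterial markers and was led by Gkn3, Sema3g, Stmn2, Vegfc and Bmx, and the other was led by Gatm, the venous marker Slc38a5 and the capillary marker Car4. The names are relative, since the first also met the capillary markers Mfsd2a, Slc16a1, Spock2 and Rgcc and the venous markers Vwf and Ephb4, and the second met the arterial marker Efnb2. The arterial-like cluster made up 25.9%, 27.9% and 33.6% of endothelial cells in the young, adult and old libraries. Tgfb2 was higher in it by 3.65-fold (3.02 to 4.42), 2.32-fold and 3.02-fold, at 276 CPM against 93.7 CPM over the 3 libraries. By count, the arterial-like cluster held 956 Tgfb2 UMIs and the other, larger cluster 631. Smad6 was also higher there, by 1.74-fold (1.11 to 2.7), 2.12-fold and 2.03-fold, at 51.4 CPM against 25.5 CPM. Id1 was near even, with ratios of 1.09, 0.877 and 0.945, and Tgfb1 likewise, with 1.13, 0.964 and 0.961.

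Because the arterial-like share was larger in the old library, the ratios between ages were also taken within each cluster. Smad6 was 1.7-fold higher (1.15 to 2.55) in the old than the young library among arterial-like cells and 1.46-fold (1 to 2.13) among the others. Acvrl1 was 1.31-fold and 1.16-fold higher, and Smad7 1.34-fold and 1.15-fold higher. These genes were thus higher in the old library in both clusters. Id1 was 1.12-fold (1.05 to 1.19) higher in arterial-like cells and 1.29-fold (1.24 to 1.35) higher in the others, and between adult and young it was at 0.91 and 1.14. Tgfb2 was at 1.01 in arterial-like cells and at 1.22 in the others. When cells were thinned to 2000 UMIs, Smad6 was found in 6.54% (4.39 to 9.32), 5.51% (3.49 to 8.23) and 10.3% (7.48 to 13.7) of endothelial cells, with young and old intervals that overlapped, and in at most 0.699% of thinned rods. Before thinning the shares were 16.1%, 16.5% and 28.6%, against at most 0.422% of rods.

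**Figure D4:**
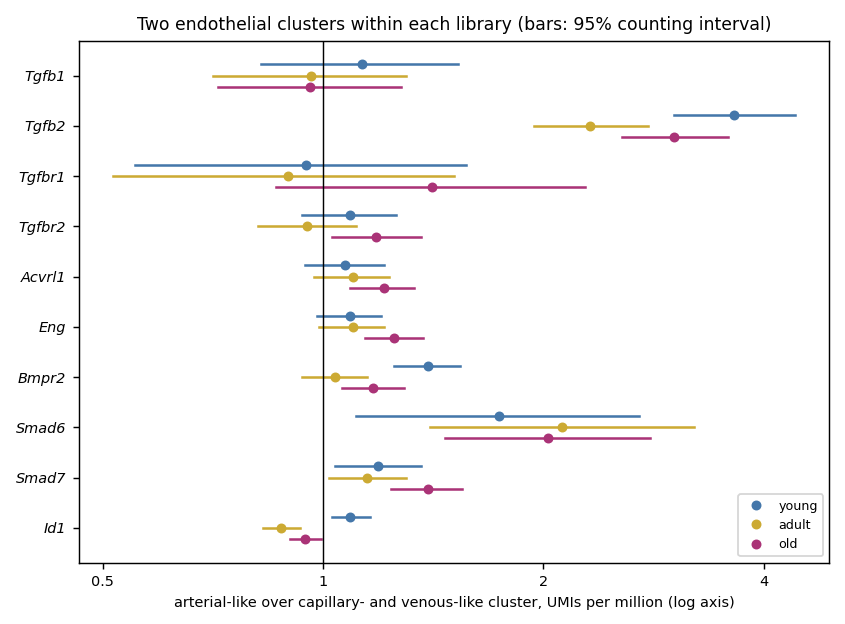
Ratio of the CPM of the arterial-like over the capillary- and venous-like endothelial cluster for each of the 10 genes (log axis), with 1 point per library and exact 95% counting intervals. Tgfb2 and Smad6 were higher in the arterial-like cluster in each library, by 2.32-fold or more and by 1.74-fold or more.

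In pericytes, the contractile cells wrapped around capillaries, Id1 and Tgfbr2 were higher in the old library. Id1 was at 114 CPM (89.9 to 142), 149 CPM (118 to 185) and 212 CPM (174 to 255), a ratio of 1.86 (1.38 to 2.52) between old and young. Tgfbr2 was at 87.7 CPM (67.1 to 113), 94.3 CPM (70.5 to 124) and 138 CPM (108 to 174), a ratio of 1.58 (1.11 to 2.26). Thus 2 of the 8 genes with enough UMIs were past 1.5-fold, where 12.0% of 3933 genes were. Tgfbr1 and Smad6 had too few UMIs here. With classes set from the markers of each cell neither gene was past 1.5-fold, at 1.38 for Id1 and 1.15 for Tgfbr2, and Id1 was at 1.47 with doublets kept and at 1.25 as a mean of per-cell CPM. Acvrl1 was at 1.49 (0.974 to 2.28), Eng at 1.15, Bmpr2 at 1.18, Tgfb2 at 1.14, Smad7 at 0.928 and Tgfb1 at 0.77. All 8 endothelial markers were detected in the pericyte class, and their summed level was 5.98%, 5.93% and 8.52% of that in endothelial cells. Single markers differed, with Cldn5 at 2.7%, 3.12% and 5.51%, Cdh5 at 2.98%, 4.78% and 3.37%, and Emcn at 56.7%, 45% and 49.7%. Smooth muscle markers in the pericyte class were at 917, 2005 and 1554 CPM and erythroid markers at 20.1, 39.9 and 385 CPM. Pericyte Id1 was 7.19%, 8.91% and 10.9% of the endothelial level, and pericyte Tgfbr2 34.3%, 40.8% and 58.1%. The dissociation list was at 0.764 between old and young pericytes. The part of these shifts in the differences was not tested.

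In smooth muscle cells, 4 of the genes had enough UMIs for a ratio, Tgfb1, Tgfbr1, Tgfbr2, Acvrl1, Eng and Smad6 did not, and counts were small in the 38, 38 and 37 cells. Tgfb2 was at 185 CPM (140 to 240), 140 CPM (101 to 187) and 114 CPM (81.9 to 155), and was lower in the old than in the young library at a ratio of 0.616 (0.402 to 0.937). It was the 1 gene past 1.5-fold, where 14.0% of 1975 genes were, and over the alternatives its ratio ran from 0.535 to 0.702, not past 1.5-fold with classes set from cell markers or with stricter cell limits. Smad7 was at 0.67 (0.421 to 1.06), Id1 at 0.945 and Bmpr2 at 1.28. Id1 was at 94.3, 149 and 89.1 CPM, highest in the adult library, but after thinning it was 2.05-fold higher in the old than in the adult library. Pericyte markers in this class were at 9301, 9087 and 4715 CPM and so were also lower in the old library, and the dissociation list was 1.17-fold higher. Their part was not tested.

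In Müller glia, Id1 was the gene with the clearest difference, at 136 CPM (119 to 155) in the young, 256 CPM (234 to 280) in the adult and 223 CPM (200 to 248) in the old library. The adult and old libraries both lay above the young one, by 1.88-fold and 1.64-fold (1.38 to 1.95). The share of Müller glia in which Id1 was detected was 49.4%, 58.4% and 46.1%, not higher in the old than the young library. After thinning the shares were 19.9% (14.2 to 26.7), 33.3% (26.8 to 40.4) and 22.3% (16.2 to 29.4). The young and old intervals overlapped, so the old over young difference was one of level and was not seen in this share. Tgfbr1 was at 29.6 CPM (21.9 to 39.2), 21.1 CPM (15.1 to 28.6) and 18.2 CPM (12.1 to 26.2), a ratio of 0.613 (0.371 to 0.994) between old and young. These 2 of 5 genes were past 1.5-fold, where 8.66% of 7354 genes were, and Tgfb1, Tgfbr2, Acvrl1, Eng and Smad6 had too few UMIs. Tgfbr1 was not past it after thinning, as a mean of per-cell CPM or with doublets kept. Its ratio ran from 0.476 to 0.996 over the alternatives, the last on 9 old and 8 young UMIs. Tgfb2, the member with the highest glial level, was at 1.04, and Bmpr2 was at 0.821 (0.656 to 1.03). Müller glia held more rod RNA in the later libraries, with free RNA estimated from rod genes at 20.9%, 37.1% and 34% of UMIs. A subtraction of free RNA at those shares asked for 275, 511 and 523 Id1 UMIs, more than the 225, 498 and 344 counted, and for 813, 1470 and 1245 Cldn5 UMIs where 11, 20 and 25 were counted, so it could not be used for endothelial genes. The 8 endothelial markers summed in Müller glia were at 4.98%, 4.58% and 4.74% of the endothelial level, with Flt1 at 16.3%, 15.4% and 17.7% and Cldn5 at 0.134%, 0.201% and 0.316%. Id1 was at 8.61%, 15.3% and 11.5%, and the part of endothelial RNA in it was not tested.

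Bipolar cells and photoreceptors gave few ratios. In bipolar cells Tgfb2 was 1.17-fold higher (1.04 to 1.32) in the old library, Tgfbr1 was at 1.11 and Bmpr2 at 0.84, so that 0 of 3 genes were past 1.5-fold, where 8.48% of 6381 genes were, and the other 7 had too few UMIs. The dissociation list was at 0.732 in this class, and its part was not tested. Bmpr2 was at 0.743 (0.458 to 1.2) in rods and at 0.839 in cones.

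Of the inhibitor of DNA binding family, to which Id1 belongs, Id1, Id2 and Id3 had similar old over young ratios in endothelial cells. In Müller glia their ratios differed from each other, and the difference between the classes was not tested. In endothelial cells Id2 was 1.24-fold (1.09 to 1.42) and Id3 1.20-fold (1.15 to 1.25) higher in the old library, close to the 1.23 of Id1. Endothelial Id3 was at 1321, 1425 and 1583 CPM. In Müller glia Id2 was lower, at 204, 182 and 151 CPM and a ratio of 0.741 (0.625 to 0.879), Id3 was at 573, 540 and 587 CPM, and Id4 was at 50.2, 19 and 31.1 CPM with a ratio of 0.62 (0.425 to 0.895). Thus the level of Id1 was higher in old than in young Müller glia, while that of Id2 was lower. The Id4 difference was not stable, at 0.774 with doublets kept and turned to 1.3 with classes set from cell markers and to 1.29 with stricter cell limits. In pericytes Id3 was at 90.6, 243 and 160 CPM, with a ratio of 1.76 (1.26 to 2.49).

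**Figure D5:**
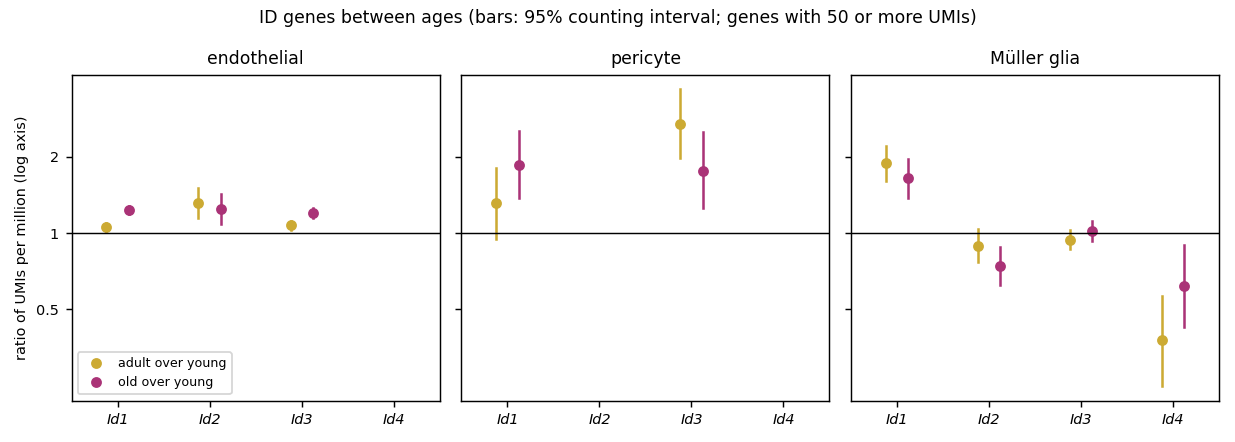
Ratios of CPM between ages, adult over young and old over young, for Id1, Id2, Id3 and Id4 in endothelial cells, pericytes and Müller glia (log axis), with exact 95% counting intervals and only genes with at least 50 UMIs over the pair. In Müller glia Id1 lies at 1.88 and 1.64, whereas Id4 lies at 0.62 between old and young, a ratio that turned to 1.3 with classes set from cell markers.

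Among the other 55 genes of the pathway list, 3 of the 26 with enough UMIs in endothelial cells were past 1.5-fold and higher in the old library, and none was lower, a share near the 8.16% of all genes. Mgp, a matrix protein that binds BMP ligands, was at 947, 1262 and 1586 CPM, a ratio of 1.68 (1.6 to 1.75). Lrrc32, which holds latent TGF-β at the cell surface, was at 19, 22.4 and 32.1 CPM, a ratio of 1.69 (1.23 to 2.35). Atoh8, a transcription factor and target of BMP signaling, was at 14.6, 14.9 and 22 CPM, a ratio of 1.5 (1.03 to 2.2). These calls were not stable over the alternatives. Atoh8 was at 1.48 under median-of-ratios scaling and at 1.28 as a mean of per-cell CPM. With the mixed clusters counted as endothelial, Mgp was at 1.13 and Lrrc32 at 1.05, and with classes set from cell markers they were at 1.24 and 1.16, while Atoh8 was at 1.8 and 1.83. Within the capillary- and venous-like cluster alone Mgp was at 1.45 and Atoh8 at 1.34, and Lrrc32 had too few UMIs. The median log2 ratio of these 26 genes was 0.0983. The signal-carrying SMADs gave 0 of 5 past the limit and a median log2 ratio of -0.167, and of these Smad4, the common partner, was at 0.789 (0.68 to 0.916) and Smad5 at 0.726 (0.578 to 0.91). The circulating ligands of Acvrl1, Gdf2 and Bmp10, had 0 UMIs in all 7 classes.

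In pericytes, 2 of 19 listed genes were past 1.5-fold, beside 12.0% of all genes, both higher, namely Id3 and the matricellular target Ccn2 (112, 138 and 212 CPM, ratio 1.89, 1.4 to 2.56). With classes set from cell markers Id3 was at 1.06 and Ccn2 at 1.49. In Müller glia, 1 of 26 was past it, namely Id4, beside 8.66% of all genes, and it was not past 1.5-fold with doublets kept or with marker classes. Bmpr1b, a type I receptor for BMP ligands, was at 67.7, 81.3 and 89.5 CPM in Müller glia, and Bmp4, a BMP ligand, was at 76.2, 56.2 and 63.5 CPM in pericytes. These 2 genes, with Smad4 and Smad5 in endothelial cells and Id2, were picked out after their values were seen.

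The likeness of each gene's pattern to that of 10409 genes was described over 21 points, each a class in a library, as the Pearson correlation of log2(CPM + 1). Points of one library share its preparation and depth, so these values carry no p. The genes most like Acvrl1 were Gpcpd1 (0.958), Helz2 and Erg (0.956), the last a transcription factor of endothelial cells. Eng was most like Anxa2 (0.975), Ltbp4 (0.974) and Fxyd5 (0.971), Tgfbr2 most like BC028528 (0.973), Wasf2 (0.967) and Arpc1b (0.966), and Bmpr2 most like Gm32688, Dab2 and Gata2 (0.955). Id1 was most like Gbp2 (0.969), Psmb9 (0.962) and Trim34a (0.961). Smad7 was most like Samhd1 (0.961), Iqgap1 (0.957) and Iigp1 (0.953), and Smad6 most like Efna1 (0.924), Snx3 (0.912) and Actg1 (0.905). For the ligands, Tgfb1 was most like Rbms1 (0.98), Ppic (0.977) and Ets1 (0.974), and Tgfb2 most like Morf4l2 (0.93), Pam (0.926) and Zbtb20 (0.925). Tgfbr1 was most like Prkcb (0.889), Fam189a2 (0.864) and Tcp11l2 (0.847). Among the 10 genes themselves, the closest pair was Tgfbr2 and Eng, at 0.96. Smad6 and Id1 were at 0.887 and Tgfb2 and Tgfbr1 at 0.751, below other pairs such as Tgfb1 and Tgfbr2 (0.933) and Acvrl1 and Eng (0.926). The Tgfb2 and Tgfbr1 value is over whole classes, and within bipolar cells the Cck and Vsx1 cluster was the one high in both.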

How the data were processed

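Single-cell RNA-seq counts of 3 libraries of CD31-enriched mouse retina were analysed. The authors made the deposited UMI counts per gene and cell with Cell Ranger 6.1.2, per the submitters' processing notes, on the mm10 build. All 32285 genes of the files were used. Cells with 500 to 6000 genes and 1 to 20% mitochondrial UMIs were kept, and doublets called by Scrublet (scanpy 1.11.5), 0.409%, 0.861% and 0.934% of the young, adult and old cells, were removed. Total UMIs per library ran from 16577026 to 19977238. Cells were clustered with Seurat 5.3.0 (R 4.3.3) after CCA integration, with the 65 signaling genes and the genes of the study's signature table left out of the features, and clusters were named from fixed marker lists. UMIs were summed per class and library. Levels have exact Poisson intervals, ratios exact conditional intervals and shares Clopper-Pearson intervals (scipy 1.17.1), all at 95%. With 1 library per age there was no replicate and no test; a ratio past 1.5-fold among genes with 50 or more UMIs over the pair of libraries stood in for a call. Classes with 30 or more cells in each library were compared. All 10 members were named; of the pathway list, genes past 1.5-fold between old and young in endothelial cells, pericytes and Müller glia were named, at most 5 per direction; and for each member the 3 genes with the highest correlation were named. The members, the lists, the naming thresholds and the promoter strings were chosen with earlier results of these data known. Promoter windows came from RefSeq (GRCm38.p6).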

Additional observations from a re-analysis of the deposited data

Results flagged for a closer look

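Id1 differed in direction between vascular classes in the comparison of the old with the adult library. It was higher in the old library in endothelial cells, at a ratio of 1.17, and in pericytes, at 1.42, and lower in smooth muscle cells, at 0.598 (0.369 to 0.956). The smooth muscle value rests on 32 old and 47 adult UMIs and turned to 2.05 after thinning, and the pericyte value turned to 0.948 as a mean of per-cell CPM, so the directions were not stable. Tgfb2 also differed in direction, between old and young. It was at 1.15 in endothelial cells and 1.17 in bipolar cells, and at 0.616 in smooth muscle cells, which had 41 old and 57 young UMIs. With 1 library per age, neither difference between classes was tested.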

How the results depend on the processing

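Of 818 recomputed ratios between ages, 740 moved by less than their counting interval, 74 moved further and 4, of the 240 whose interval did not include 1, changed direction. Of the other 578, whose interval included 1, 95 crossed to the other side of 1. The 4 were Id1 in endothelial cells between adult and young, at 0.91 in the arterial-like cluster alone; Eng in pericytes between old and adult, at 0.961 with classes set from each cell's markers; Id1 in pericytes between old and adult, at 0.948 as a mean of per-cell CPM; and Id1 in smooth muscle cells between old and adult, at 2.05 after thinning. The cause was not tested. The count of 8 genes highest in endothelial cells held under all alternatives run for it, and that of 1 endothelial gene past 1.5-fold became 0 in the capillary- and venous-like cluster alone and held otherwise. In pericytes the 2 genes became 1 under median-of-ratios scaling (Id1), after thinning (Id1) and with doublets kept (Tgfbr2), and 0 with marker classes. As mean per-cell CPM the count stayed at 2, but with Tgfb1 in place of Id1, and it became 3, with Acvrl1 added, under stricter cell limits and after free RNA subtraction. In Müller glia the 2 became 1 as mean per-cell CPM, after thinning and with doublets kept, 5 with no minimum count and 0 in the shallower cluster alone, and after free RNA subtraction Bmpr2 took the place of Id1. That subtraction left no Id1 UMI in Müller glia and 85, 17 and 0 Bmpr2 UMIs, so this swap is not read as a difference between ages. Among the other listed genes, the 3 in endothelial cells became 1 with marker classes, with the mixed clusters added and in the capillary- and venous-like cluster alone, where it was Ccn2 and none of the 3, 7 at a minimum of 20 UMIs and 13 with none. It was 2 under median-of-ratios scaling, and also after thinning, in cells without markers of other classes and in the arterial-like cluster, where Mgp was the one shared, and 4 after free RNA subtraction, with Ccn2 added. The 2 in pericytes became 6 and 19 at these minimums. Their count stayed at 2 with marker classes, but as Acvr2b and Tgfbi, and as mean per-cell CPM and after thinning, but as Ccn2 and Ltbp4. The 1 in Müller glia became 5 as mean per-cell CPM, 2 after thinning, 2 after free RNA subtraction, 2 in either Müller cluster alone, 0 with doublets kept or marker classes, and 6 and 19 at these minimums. Id4 itself was past it only in the deeper cluster, under median-of-ratios scaling and at these minimums, and stricter cell limits gave 1 other gene, Ccn2. Over the alternatives, old over young ran from 1.46 to 1.99 for Smad6, 1.16 to 1.31 for Acvrl1 and 1.12 to 1.30 for Id1 in endothelial cells, from 1.25 to 2.95 for Id1 and 1.15 to 1.87 for Tgfbr2 in pericytes, from 1.48 to 1.78 for Id1 and 0.476 to 0.996 for Tgfbr1 in Müller glia, and from 0.535 to 0.702 for Tgfb2 in smooth muscle. The Müller Id1 range leaves out free RNA subtraction, which left no Id1 UMI in that class. Taking each endothelial and each Müller cluster alone was added after the data were seen. No paired analysis was possible because each age had 1 library. In the main setting, no ratio between ages was given under 50 UMIs over a pair of libraries. This left 4 of the 10 genes in smooth muscle cells and 3 in bipolar cells. The ranges over the alternatives had no such minimum. In the shallower Müller cluster, Id1 at 1.48 rested on 15 and 9 UMIs and Tgfbr1 at 0.996 on 9 and 8 UMIs. Pericyte Tgfbr2 at 1.87 after thinning was also under 50 UMIs.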

Other observations

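In smooth muscle cells several other genes of the pathway list were past 1.5-fold, and these genes were chosen for mention after their values were seen. Of 14 listed genes with enough UMIs, 5 were higher and 1 lower in the old than in the young library, where 14.0% of all genes were past it in either direction. Not all of them are reported here. Thbs1, which can release active TGF-β from its latent form, was at 52, 79.3 and 234 CPM, a ratio of 4.5 (2.61 to 8.23). Ccn2 was at 218, 485 and 582 CPM, a ratio of 2.67, and Pmepa1 and Itgav were at 1.65 and 1.84. Id3 was lower, at 588, 330 and 354 CPM and a ratio of 0.601 (0.475 to 0.758). Inhba, under the minimum count, had 6, 8 and 33 UMIs. In the same cells the list of dissociation-response genes was 1.17-fold higher in the old library and pericyte markers were at 9301, 9087 and 4715 CPM, and their part was not tested.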
